A study of Homo sapiens with 9 samples.

Results

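The aryl hydrocarbon receptor (AHR) genes described here are 6 of the 60664 genes counted in this series: the receptor gene *AHR*, the gene of its partner *ARNT*, the repressor gene *AHRR*, and the classic target genes *CYP1A1*, *CYP1B1* and *TIPARP*. They were chosen by function, starting from *CYP1A1*, and *CYP1A1* was selected on its high level at elevated viscosity, so the comparison of viscosities in control cells is a description for these 6 genes and carries no test. RNA was counted in 9 samples of MDA-MB-231, a human triple-negative breast cancer cell line, with 3 samples in each of 3 groups, all taken on day 6. Scramble control (SC) cells, labelled WT, were kept in media of 0.77 cP or 8 cP, the second labelled as high viscosity. The third group, labelled TRPV4 knockdown, carried a short hairpin RNA against the calcium channel gene *TRPV4* (shTRPV4) and was kept at 8 cP. The hairpins, scramble included, were carried stably by lentivirus under puromycin selection, and 1 hairpin sequence stood for the knockdown. Viscosity was raised with methylcellulose in IMDM with serum, so the polymer and the viscosity itself cannot be told apart. No shTRPV4 cells at 0.77 cP are analysed here, so whether the hairpin changed the effect of viscosity was not tested.

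AHR is a transcription factor of the bHLH-PAS family that senses small molecules, among them combustion products, plant compounds and breakdown products of tryptophan. Without a ligand it is held in the cytosol by HSP90 and its cochaperones. With one it enters the nucleus, pairs with ARNT and binds response elements that hold the letters GCGTG. *CYP1A1* and *CYP1B1*, which encode cytochrome P450 enzymes that oxidize aromatic compounds and oestrogens, are the usual readouts of the receptor, and *AHRR* and *TIPARP* are induced by it and hold it back.

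The sequences just upstream of 3 of these genes are shown because they hold this core on one strand or the other, written in capitals (GCGTG, or CACGC where it lies on the opposite strand). They are 250-base windows that end at the base before the RefSeq gene start (GRCh38.p14), 5′ to 3′ on the strand of the gene. The *CYP1A1* window is chr15:74725529-74725778 (minus strand), and its last 8 bases lie in the first exon of the GENCODE 44 model. The *TIPARP* window, chr3:156674340-156674589 (plus strand), lies in an intron of the GENCODE gene, ahead of a downstream start. The *AHRR* window, chr5:321464-321713 (plus strand), ends where the GENCODE gene begins.
CYP1A1: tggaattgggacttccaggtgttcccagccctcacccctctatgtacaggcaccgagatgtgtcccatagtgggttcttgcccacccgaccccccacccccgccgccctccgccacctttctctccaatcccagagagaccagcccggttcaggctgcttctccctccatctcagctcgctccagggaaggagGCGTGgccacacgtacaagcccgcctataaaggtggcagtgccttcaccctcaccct
TIPARP: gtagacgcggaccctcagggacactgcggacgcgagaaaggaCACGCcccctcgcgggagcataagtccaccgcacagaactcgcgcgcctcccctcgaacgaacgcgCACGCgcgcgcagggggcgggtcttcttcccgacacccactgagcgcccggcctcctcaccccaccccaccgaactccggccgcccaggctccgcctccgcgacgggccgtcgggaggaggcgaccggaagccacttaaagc
AHRR: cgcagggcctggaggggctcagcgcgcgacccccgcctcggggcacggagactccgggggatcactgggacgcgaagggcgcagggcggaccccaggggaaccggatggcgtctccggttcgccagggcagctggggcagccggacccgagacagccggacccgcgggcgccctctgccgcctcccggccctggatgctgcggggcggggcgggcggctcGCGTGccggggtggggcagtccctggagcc
*CYP1A1* held 1 core, at bases -57 to -53 from the start. *TIPARP* held 2, at -208 to -204 and -142 to -138, both on the opposite strand, and no match in its other 2 windows. *AHRR* held 1 at -30 to -26, which was also the only match among the 6 genes to the longer form TNGCGTG (-32 to -26, overlapping the core), and its second window held 2 cores. The windows of *AHR* and *ARNT* held none, and *CYP1B1* was not matched, so 5 of 6 genes had a window. Matches to 5 letters are common: of 35116 RefSeq windows of this length, 32.2% held the core on either strand, 10.2% held at least 2 and 4.52% held the longer form.

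Library totals ran from 64571681 to 103518036 counts, and the level of the targeted gene followed the labels. *TRPV4* had 24 to 64 counts in the 6 SC libraries and 1 to 13 in the 3 shTRPV4 libraries, a log2 fold change of -2.51 ± 0.49 (SE) at 8 cP (edgeR quasi-likelihood test, adjusted p = 0.00219). The 7 genes listed as expressed in this line, such as the mesenchymal gene *VIM*, summed to between 5145 and 5773 CPM (counts per 1000000 of the scaled library) per library. Of 6 genes listed as absent from it, *ESR1*, *PGR*, *CDH1* and *KRT5* were under 1 CPM in every library, whereas *EPCAM* and *GATA3* were counted in all. Of 6 markers of other cell types, *PTPRC*, *CD3E* and *ALB* were under 1 CPM throughout, and the 6 together summed to 15.5 to 19.0 CPM for SC at 0.77 cP, 11.6 to 12.8 for SC at 8 cP and 9.75 to 10.8 for shTRPV4, through *CD14*, *PECAM1* and *COL1A1*. The part of this difference in the results given here was not tested. The study calls its experiments independent biological replicates in general, but neither the labels nor the RNA-seq methods say so of these 9 samples, so p-values measure the spread between them, which may be technical.

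Per kilobase of exon, the 6 genes lay far apart, and their order by level was the same in all 3 groups. In SC cells at 0.77 cP the mean level was 33.4 CPM per kilobase for *CYP1B1*, 20.5 for *TIPARP*, 10.1 for *AHR*, 6.20 for *ARNT*, 0.556 for *CYP1A1* and 0.00653 for *AHRR*. In SC cells at 8 cP the means were 55.5, 19.2, 8.96, 6.05, 2.20 and 0.00408 CPM per kilobase in that order, and in shTRPV4 cells 56.7, 19.2, 8.93, 5.74, 2.78 and 0.00766. The receptor and its partner were therefore counted well above the repressor, and *CYP1B1* stood above *CYP1A1* in every group. All levels below are CPM on the TMM-scaled library size, given for replicates 1, 2 and 3 of a group.

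*AHR* (ENSG00000106546), the receptor gene, spans chromosome 7 from 16916359 to 17346152 on the plus strand. It was at 82.3, 88.9 and 73.9 CPM in SC cells at 0.77 cP (81.7 ± 7.51, SD, n = 3), at 76.0, 71.3 and 69.2 in SC cells at 8 cP (72.2 ± 3.46) and at 70.6, 71.1 and 74.1 in shTRPV4 cells (71.9 ± 1.87). Its first 2 libraries at 0.77 cP were the highest of all 9, but the third lay among those at 8 cP, so the ranges overlapped. The log2 fold change between viscosities in SC cells was -0.18 ± 0.060 (SE). *AHR* shares 2373 exon bases with a gene on its own strand that had 0 counts in all 9 libraries, and 492 with a gene on the other strand that had 45 to 99.

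*ARNT* (ENSG00000143437), whose product pairs with AHR and with the hypoxia factors, spans chromosome 1 from 150809713 to 150876708 on the minus strand. It was at 40.0, 40.8 and 39.1 CPM in SC cells at 0.77 cP (40.0 ± 0.865), at 38.2, 40.0 and 38.8 in SC cells at 8 cP (39.0 ± 0.924) and at 36.5, 37.3 and 37.3 in shTRPV4 cells (37.0 ± 0.496). The SC groups overlapped, with a log2 fold change between viscosities of -0.035 ± 0.045, and the 3 shTRPV4 libraries were the lowest of the 9. Of the 6 genes it varied least between libraries.

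*AHRR* (ENSG00000063438; chromosome 5, 321714 to 438291, plus strand), the repressor that competes with AHR for ARNT, had 10, 2 and 5 counts in SC cells at 0.77 cP, 2, 5 and 4 in SC cells at 8 cP and 5, 5 and 9 in shTRPV4 cells. In 2 libraries the count was under the floor of 3 counts, the groups overlapped, and the gene did not pass the filter on low counts, so it was not tested and no difference was detectable at this depth. It shares 5561 of its 9480 exon bases with the read-through gene *PDCD6-AHRR*, which had 0 counts in every library, so reads on the shared exons could have been left out of both.

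*CYP1A1* (ENSG00000140465), the enzyme gene that AHR ligands induce most steeply in many tissues, spans chromosome 15 (74719542 to 74725536, minus strand) and shares no exon base with another gene. It had 165, 108 and 223 counts in SC cells at 0.77 cP, which were 1.75, 1.68 and 2.17 CPM (1.87 ± 0.263). In SC cells at 8 cP it had 601, 545 and 950 counts, which were 6.08, 5.64 and 10.5 CPM (7.39 ± 2.67). With the hairpin it had 1380, 544 and 546 counts, which were 15.1, 6.95 and 6.04 CPM (9.35 ± 4.97). Every library at 8 cP lay above every library at 0.77 cP, with or without the hairpin, whereas the 8 cP groups overlapped. The mean in SC cells was 3.96 times as high at 8 cP as at 0.77 cP, a log2 fold change of 1.97 ± 0.31 (SE), the fifth largest rise of 18264 genes tested. Within each 8 cP group 1 library stood above the rest: replicate 3 of the SC cells and replicate 1 of the shTRPV4 cells.

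*CYP1B1* (ENSG00000138061), the related enzyme gene with high expression outside the liver, spans chromosome 2 from 38066973 to 38109902 on the minus strand. It was at 195, 223 and 186 CPM in SC cells at 0.77 cP, at 342, 313 and 347 in SC cells at 8 cP (334 ± 18.7) and at 403, 315 and 307 in shTRPV4 cells (342 ± 53.0). As for *CYP1A1*, all 6 libraries at 8 cP were above the 3 at 0.77 cP and the 8 cP groups overlapped. The mean in SC cells was 1.66 times as high at 8 cP, a log2 fold change of 0.73 ± 0.089, which ranked 232nd from the top. *CYP1B1* shares 678 exon bases with *CYP1B1-AS1* on the other strand, and since the strand option of the counting is not given in the sources used here, reads of the pair may not have been separated. *CYP1B1-AS1* was assigned 116 to 146 counts at 0.77 cP and 180 to 302 at 8 cP, against 14328 to 36880 for *CYP1B1*.

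*TIPARP* (ENSG00000163659), which encodes a mono-ADP-ribosyltransferase that modifies AHR, spans chromosome 3 from 156673235 to 156706770 on the plus strand. It was at 93.9, 103 and 98.5 CPM in SC cells at 0.77 cP (98.6 ± 4.72), at 88.0, 89.9 and 98.8 in SC cells at 8 cP (92.2 ± 5.74) and at 103.7, 86.8 and 85.7 in shTRPV4 cells (92.0 ± 10.1). The 3 groups overlapped, and the log2 fold change between viscosities in SC cells was -0.096 ± 0.068. This target thus lay slightly lower at 8 cP while both cytochrome P450 genes lay higher.

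**Figure D1:**
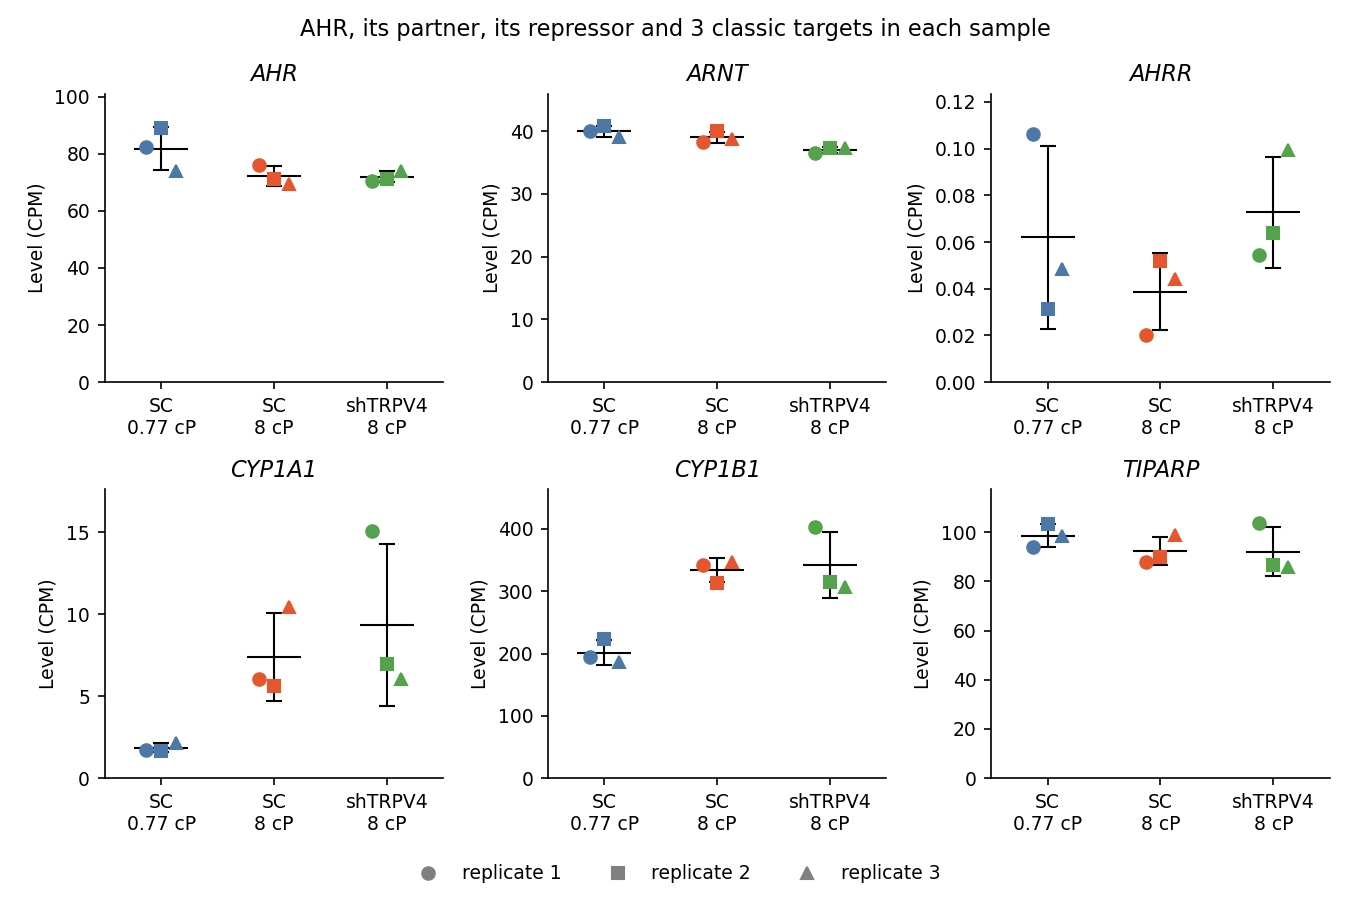
Levels of the 6 genes in CPM (y axis, from 0) in the 9 libraries, by group (x axis) and replicate number (symbol), with the group mean and its SD as the horizontal line and bars. *CYP1A1* and *CYP1B1* lay higher in all 6 libraries at 8 cP than in the 3 at 0.77 cP, whereas the groups overlapped for *AHR* and *TIPARP* and *AHRR* was near 0.

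Across SC cells of the 2 viscosities, 19.3% of all genes tested passed an adjusted p of 0.05 (edgeR, Benjamini-Hochberg over all genes). In mean level *CYP1A1* and *CYP1B1* lay higher at 8 cP, and *AHR*, *ARNT* and *TIPARP* lower. Since this comparison chose *CYP1A1*, these directions are a description, and no call is given for the 5 AHR genes tested. The log2 fold change of *AHR* moved between -0.24 and -0.11 when 1 library was left out, the value nearest 0 being that without replicate 2 at 0.77 cP. The same libraries were the highest of their groups for all 3 target genes: replicate 3 of the SC cells at 8 cP and replicate 1 of the shTRPV4 cells. Replicate 3 of the SC cells was the highest of its group in 35.2% of all genes tested, and replicate 1 of the shTRPV4 cells in 39.7%. What set these libraries apart was not tested.

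The comparison of shTRPV4 with SC cells at 8 cP asks what the hairpin changes at elevated viscosity, and it did not serve to choose the genes, although it shares the SC libraries at 8 cP. None of the 5 AHR genes tested passed, against 20.0% of all genes. The count was 0 of 5 also at an unadjusted p below 0.05 in edgeR and by DESeq2. For *CYP1A1* the log2 fold change was 0.34 ± 0.28 (SE), with a 95% interval of -0.24 to 0.93 (edgeR adjusted p = 0.428). That interval reaches from a slightly lower level to nearly a doubling on the log2 scale, and without replicate 1 of the shTRPV4 cells the difference turned to -0.19 (adjusted p = 0.58). The intervals of the other genes were narrower. They ran from -0.16 to 0.22 for *CYP1B1*, from -0.15 to 0.14 for *TIPARP*, from -0.13 to 0.12 for *AHR* and from -0.17 to 0.021 for *ARNT*. The highest *ARNT* level in shTRPV4 cells was below the lowest in SC cells at 8 cP, but with a log2 fold change of -0.075 ± 0.045 it did not pass (edgeR adjusted p = 0.274).

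Viscosity and hairpin both differed when shTRPV4 cells were set against SC cells at 0.77 cP. Here *CYP1A1* rose by 2.31 ± 0.31 on the log2 scale (95% interval 1.65 to 2.98, edgeR adjusted p = 3.07e-05), a mean 5.01 times as high and the 14th largest rise of all genes. *CYP1B1* rose by 0.76 ± 0.089 (0.57 to 0.95, edgeR adjusted p = 7.92e-06), a mean 1.70 times as high. *AHR* fell by 0.18 on the log2 scale (SE 0.060, edgeR adjusted p = 0.0226), but with overlapping ranges, and it lost the call in 4 of 9 fits that left out 1 library. Those were the fits without replicate 1 of the SC cells at 0.77 cP (adjusted p = 0.0714), without replicate 2 of them (0.164), without replicate 1 of the shTRPV4 cells (0.0525) and without replicate 2 of them (0.0689), all by edgeR. *ARNT* (-0.11 ± 0.045, edgeR adjusted p = 0.0623) and *TIPARP* (-0.098 ± 0.068, adjusted p = 0.273) did not pass, although *TIPARP* did without replicate 1 of the shTRPV4 cells (-0.19, edgeR adjusted p = 0.0125). With 3 of 5 AHR genes and 42.4% of all genes past the threshold, the count stands in a comparison where change was common. The SC libraries at 0.77 cP are the same as in the comparison that chose *CYP1A1*, so the high values of *CYP1A1* and *CYP1B1* are not independent evidence for it.

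**Figure D2:**
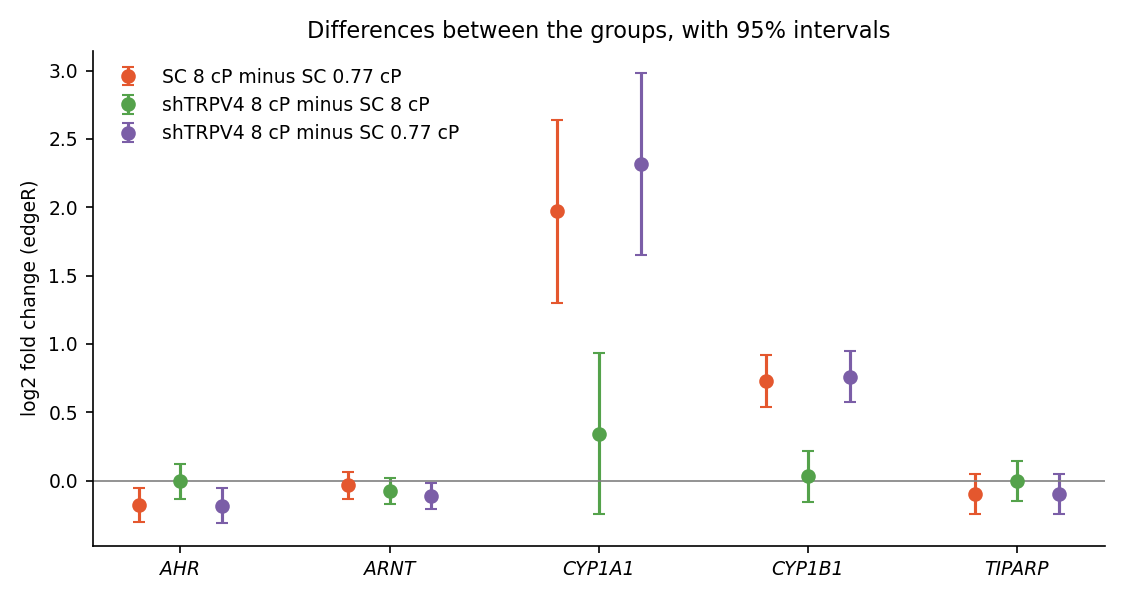
Log2 fold change (y axis) of the 5 genes tested in each of the 3 comparisons, with 95% intervals of the edgeR fit, not adjusted over genes. The interval of *CYP1A1* between shTRPV4 and SC cells at 8 cP was the widest of that comparison (-0.24 to 0.93), whereas those of *AHR*, *ARNT*, *CYP1B1* and *TIPARP* lay within about 0.22 of 0.

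A wider list of 18 genes that AHR is known to induce or bind in some cell types was counted in the same way. It was written with earlier results of these data known, in which *SERPINB2* had been seen. *CYP1A2*, the liver neighbour of *CYP1A1*, had at most 1 count in any library. *UGT1A1* and *UGT1A6*, glucuronidation enzymes that share exons with one another and with further *UGT1A* genes, had at most 4. Reads on those shared exons could have been left out, so the levels of *UGT1A1* and *UGT1A6* may be understated. *CYP1A2*, *UGT1A1* and *UGT1A6* were not tested. Between viscosities in SC cells, 4 of the 15 tested rose and 4 fell, where 19.3% of all genes passed, and the median log2 fold change of the list was -0.15, against -0.0065 over all genes. The genes that rose included the efflux transporter *ABCG2* (0.48 ± 0.077, edgeR adjusted p = 0.000962), the quinone reductase *NQO1* (0.31 ± 0.041, adjusted p = 0.000229), the retinaldehyde dehydrogenase *ALDH1A3* (0.35 ± 0.070) and the protease inhibitor *SERPINB2* (1.14 ± 0.29, edgeR adjusted p = 0.013). *SERPINB2* was at 0.923, 1.51 and 1.56 CPM in SC cells at 0.77 cP and at 2.29, 2.91 and 3.57 at 8 cP, and it lost the call without replicate 1 at 0.77 cP or without replicate 3 at 8 cP. The largest fall was that of *HES1*, a transcriptional repressor induced by Notch, from 252, 282 and 262 CPM to 50.1, 46.2 and 50.9 (-2.44 ± 0.054, edgeR adjusted p = 1.31e-13). *AREG* (-0.84 ± 0.097) and *EREG* (-0.20 ± 0.060), both ligands of the epidermal growth factor receptor, and the scaffold gene *NEDD9* (-0.32 ± 0.085) also fell. Only 5 genes of the list were called without replicate 1 at 0.77 cP, or without replicate 3 at 8 cP. The calls of *ALDH1A3*, *EREG* and *NEDD9* between viscosities were not followed singly in those fits. *ALDH3A1*, an aldehyde dehydrogenase often read together with *CYP1A1*, had 72 to 175 counts per library and did not pass (-0.34 ± 0.19, edgeR adjusted p = 0.222).

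With the hairpin at 8 cP, 3 of these 15 genes rose and 6 fell. *ALDH1A3* (0.40 ± 0.069), *ABCG2* (0.35 ± 0.075) and the P450 gene *CYP2S1* (0.46 ± 0.11) rose. *EREG* (-0.53 ± 0.061), *NEDD9* (-0.68 ± 0.087), *AREG* (-0.42 ± 0.097), *HES1* (-0.25 ± 0.053), *NQO1* (-0.13 ± 0.041) and the actin-severing gene *SCIN* (-2.02 ± 0.44) fell, the last from 22 to 24 counts per library to 4 to 7. The calls of *ABCG2*, *CYP2S1*, *AREG*, *NQO1* and *SCIN* in this comparison were not followed singly in the fits that left out 1 library. The median of the list was -0.13, against 0.00064 over all genes. The 9 of 15 that passed stand beside the 20.0% of all genes called in this comparison. In shTRPV4 cells against SC cells at 0.77 cP, where 42.4% of all genes passed, 5 rose and 6 fell, and *SERPINB2* (1.65 ± 0.28, edgeR adjusted p = 0.000245) was the one with the largest rise. Of the 16 listed genes with a RefSeq window, 10 held the GCGTG core in at least 1 of their windows, of which some genes have several. Over all RefSeq windows the share was 32.2%, but per window and not per gene. No share per gene was computed for comparison, so nothing is read from this count.

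**Figure D3:**
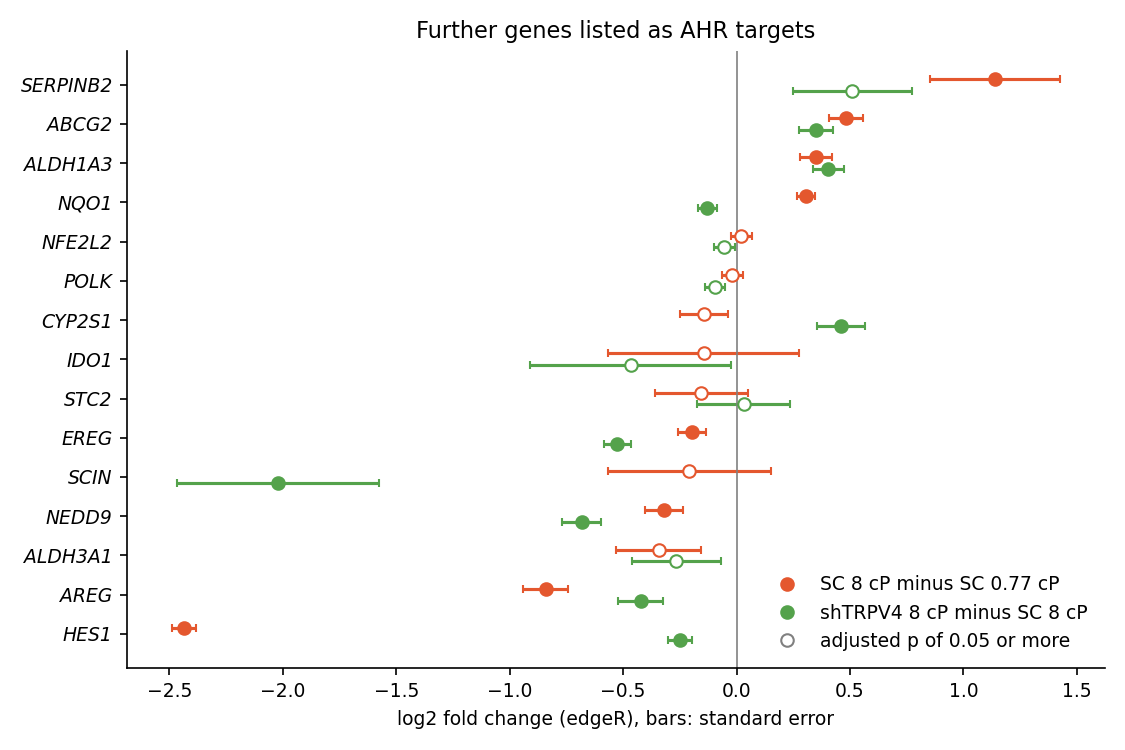
Log2 fold change with its standard error (x axis) of the 15 further AHR targets tested, between viscosities in SC cells and between shTRPV4 and SC cells at 8 cP. Filled symbols passed an adjusted p of 0.05 (edgeR), and the 8 that passed between viscosities were split into 4 higher and 4 lower, from *HES1* at -2.44 to *SERPINB2* at 1.14.

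The proteins that hold, export or assist AHR were represented by 20 genes, all tested. Between viscosities in SC cells 1 rose and 2 fell, a share below the 19.3% of all genes, with a median of 0.0082. *RELB*, an NF-κB subunit that can pair with AHR, fell by 0.31 on the log2 scale (SE 0.062, edgeR adjusted p = 0.00378), and the retinoblastoma gene *RB1* rose by 0.18 (SE 0.051). *RB1* lost the call without replicate 1 of the SC cells at 0.77 cP, or without replicate 1 or 3 at 8 cP. The chaperone genes *HSP90AA1* (0.11 ± 0.05), *HSP90AB1* (-0.04 ± 0.04) and *PTGES3* (0.10 ± 0.04) did not pass between viscosities. *HSP90AA1* did pass between shTRPV4 and SC cells at 8 cP, a call that was not followed singly without 1 library. It was at 3142, 3368 and 3602 CPM in the SC cells and lower, at 3001, 3045 and 2930, in the shTRPV4 cells. The comparison of shTRPV4 with SC cells at 8 cP, where 20.0% of all genes passed, had 4 higher and 2 lower, among them *RB1* (0.62 ± 0.051, edgeR adjusted p = 8.93e-07), *RELB* (0.55 ± 0.061), the ubiquitin ligase scaffold *CUL4B* (0.20 ± 0.05, a call lost without replicate 2 of the shTRPV4 cells) and the histone deacetylase *HDAC1* (-0.22 ± 0.040). *RELB* thus moved in opposite directions in the 2 comparisons, from 24.2, 26.5 and 23.9 CPM at 0.77 cP to 20.5, 20.9 and 18.8 in SC cells and 28.0, 29.5 and 30.4 in shTRPV4 cells at 8 cP. Set against SC cells at 0.77 cP, shTRPV4 cells had 6 of the 20 higher and 2 lower, near the 42.4% of all genes.

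AHR and ARNT belong to a family of which 10 of 13 further members were tested. Between viscosities in SC cells the circadian genes *CLOCK* (0.22 ± 0.048) and *BMAL2* (0.21 ± 0.054) rose, and *EPAS1*, the hypoxia factor HIF-2α, fell by 0.64 on the log2 scale (SE 0.13, edgeR adjusted p = 0.00386). *BMAL2* lost this call without replicate 1 of the SC cells at 0.77 cP or replicate 3 at 8 cP. *EPAS1*, which competes for the same partner ARNT, was at 101, 88.3 and 79.8 CPM in SC cells at 0.77 cP, at 63.0, 61.6 and 47.6 at 8 cP, and between 31.2 and 47.2 in shTRPV4 cells. It fell again with the hairpin at 8 cP (-0.49 ± 0.13, edgeR adjusted p = 0.0147) and *BMAL2* rose (0.20 ± 0.053), but each lost the call without replicate 1 or without replicate 2 of the SC cells. Medians of the family were -0.024 and 0.013, with 3 and 2 of 10 past the threshold against 19.3% and 20.0% of all genes. From SC cells at 0.77 cP to shTRPV4 cells 3 rose and 2 fell, against 42.4% of all genes, with *HIF1A* at -0.22 ± 0.06.

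Tryptophan reaches cells through the transporter pair *SLC7A5* and *SLC3A2*, which also carries the AHR ligand kynurenine, and 14 of 18 listed genes of its uptake and breakdown were tested. Both transporter genes rose between viscosities in SC cells, *SLC7A5* by 0.59 ± 0.092 (edgeR adjusted p = 0.000787) and *SLC3A2* by 0.27 ± 0.058 (adjusted p = 0.00609), and again between shTRPV4 and SC cells at 8 cP, by 0.57 ± 0.092 (adjusted p = 0.000491) and 0.28 ± 0.058 (edgeR adjusted p = 0.00321). *SLC7A5* was at 250, 251 and 312 CPM in SC cells at 0.77 cP, at 392, 379 and 454 at 8 cP and at 684, 561 and 569 in shTRPV4 cells, so that no group overlapped another. Like *CYP1A1*, it was highest in replicate 3 of the SC cells at 8 cP and in replicate 1 of the shTRPV4 cells. Of the enzymes, *AFMID*, which makes kynurenine, fell between viscosities by 0.22 on the log2 scale (SE 0.066) and lost the call without replicate 1 or 2 at 0.77 cP, or replicate 2 or 3 of the SC cells at 8 cP. *IDO1*, the inducible first enzyme, had 6 to 29 counts per library and did not pass in any comparison. With the hairpin at 8 cP the monoamine oxidase *MAOA* (-0.33 ± 0.068), kynureninase *KYNU* (-0.50 ± 0.15) and *KYAT3* (-0.26 ± 0.08) fell, *KYNU* losing the call without replicate 1 or 2 of either group. *IL4I1*, an oxidase that yields AHR ligands, rose by 1.73 ± 0.53 (edgeR adjusted p = 0.0322), from 1 to 10 counts per library to 14 to 21. The lowest of these counts was under the floor of 3. Whether the calls of *IL4I1* and *KYAT3* in this comparison held without 1 library was not checked. In all, 2 rose and 1 fell between viscosities (median -0.14), 3 rose and 3 fell with the hairpin at 8 cP (median -0.085), and 3 rose and 4 fell between shTRPV4 cells and SC cells at 0.77 cP, where 19.3%, 20.0% and 42.4% of all genes passed.

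To find the genes whose pattern was most like that of *CYP1A1*, the pair of log2 fold changes against SC cells at 0.77 cP (1 for each of the groups at 8 cP) was compared over the 13402 tested genes with a mean of at least 1 CPM in 1 group, by Euclidean distance. The nearest were *KCNK2* (distance 1.04), a potassium channel gene, and *SERPINB2* (1.06), followed by the cytokine gene *IL24* (1.16), the microRNA host gene *MIR17HG* (1.18) and *BMPER* (1.27), which encodes a secreted regulator of bone morphogenetic proteins. Their pairs were 1.13 and 1.69 for *KCNK2*, 1.14 and 1.65 for *SERPINB2*, 0.98 and 2.92 for *IL24*, 0.90 and 1.80 for *MIR17HG*, and 0.75 and 1.94 for *BMPER*, against 1.97 and 2.31 for *CYP1A1*. The nearest gene thus lay about as far from *CYP1A1* as a doubling in 1 of the comparisons. The pairs rest on 3 conditions and both members share the SC libraries at 0.77 cP, so the likeness is a description. *IL24* and *MIR17HG* reached 1 CPM only at 8 cP, *IL24* in both groups (1.06 and 4.05 CPM) and *MIR17HG* with the hairpin (1.38 CPM), so the minimum admitted them through groups in which they were high.

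**Figure D4:**
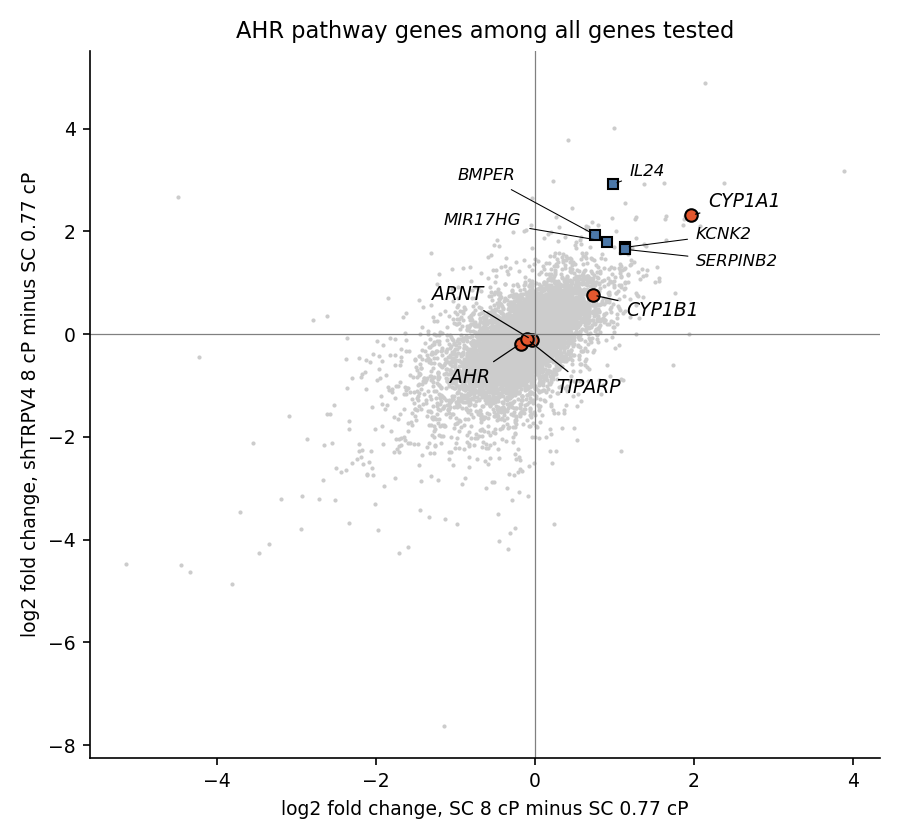
Log2 fold change of each gene tested (grey) against SC cells at 0.77 cP, for SC (x axis) and shTRPV4 (y axis) at 8 cP, which share those control libraries. The 5 AHR genes tested are circles and the 5 genes nearest to *CYP1A1* are squares; *CYP1A1* (1.97 and 2.31) lay apart from them, *CYP1B1* at 0.73 and 0.76, and *AHR*, *ARNT* and *TIPARP* near 0.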

How the data were processed

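Gene expression of MDA-MB-231 cells was measured by RNA-seq in 9 samples, 3 per group, with groups taken from the sample titles. According to the methods, the authors mapped the reads of stranded poly(A) libraries to GRCh38 with HISAT2 (2.2.1 in the submitters' processing notes), and counted them on Ensembl exons with HTSeq (0.13.5). The authors deposited these raw counts per gene and sample, without normalization. The strand option is not given in the sources used here. Depending on its mode, HTSeq can leave out reads on exons that genes share.

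Of 60664 genes, 60463 were matched to a symbol. Totals were 64571681 to 103518036 per sample. Molecules carry no identifiers, so floors (3 counts) cover counting error only. In R 4.3.3, counts were scaled by TMM and filtered by filterByExpr, leaving 18264 genes, and tested with edgeR 4.0.16 (quasi-likelihood, 1 coefficient per group, all 9 samples, common biological coefficient of variation 0.0633). P-values were adjusted by Benjamini-Hochberg over all genes, with a threshold of 0.05. DESeq2 1.42.0, upper quartile scaling, other filters, fewer samples, the replicate number as a block, and leaving out each sample were alternatives, and they were extended to the wider lists after the data had been seen. The methods were tested on simulated data.

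The 6 genes and the wider lists were chosen with earlier results of these data known. Named genes are the 6 genes, *TRPV4*, cell line markers, up to 4 genes per list and comparison with the smallest adjusted p among those past the threshold, and the 5 nearest to *CYP1A1*. Others named to complete a count were chosen after their values were seen. A gene that the rule selects is not reported here. Gene positions come from GENCODE 44, sequences from RefSeq. Same-numbered samples of different groups did not deviate together.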

Additional observations from a re-analysis of the deposited data

How the results depend on the processing

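Between viscosities, *CYP1A1* moved the most of the AHR genes tested in log2 units when 1 library was left out. Relative to their own size, the log2 fold changes of *CYP1A1* and *CYP1B1* moved by less than 1.5 times under every alternative. Those of *AHR* (-0.24 to -0.11), *ARNT* (-0.043 to -0.012) and *TIPARP* (-0.14 to -0.053), closer to 0, moved by more in this relative sense when 1 library was left out. For all 3 the value nearest 0 was that without replicate 2 at 0.77 cP. The number of genes called between viscosities (3518) ranged from 1409, without replicate 1 of the SC cells at 0.77 cP, to 4349, without replicate 1 of the shTRPV4 cells, and was 1927 without replicate 2 at 0.77 cP and 1418 without replicate 3 of the SC cells at 8 cP. Between shTRPV4 and SC cells at 8 cP (3649) it ranged from 2179, without replicate 2 of the SC cells, to 3836, without replicate 3 of the SC cells at 0.77 cP, was 2361 without replicate 1 of the SC cells at 8 cP, and reached 3902 with no filter on low counts. Over the wider lists together, 22 genes were called between viscosities (10 to 28 without 1 library, the lowest without replicate 1 at 0.77 cP or replicate 3 of the SC cells at 8 cP) and 33 between shTRPV4 and SC cells at 8 cP (21 to 35, the lowest without replicate 1 of the SC cells). Of the further AHR targets, 5 to 8 were called between viscosities without 1 library, 5 without replicate 1 at 0.77 cP or replicate 3 of the SC cells at 8 cP. Between shTRPV4 and SC cells at 8 cP, where no AHR gene was called, leaving out 1 library moved the log2 fold change from -0.034 to 0.034 for *AHR*, from -0.10 to 0.10 for *CYP1B1*, from -0.097 to 0.049 for *TIPARP* and from -0.19 to 0.68 for *CYP1A1*, so that the sign depended on the library left out. With no filter on low counts, 1 AHR gene was called there, *CYP1A1* (0.35, edgeR adjusted p = 0.00436). In that fit 34549 genes entered, the prior degrees of freedom were infinite instead of 9.33, and the quasi-likelihood dispersion of *CYP1A1* was 0.861 instead of 6.76. *ARNT* passed between shTRPV4 cells and SC cells at 0.77 cP with upper quartile scaling (-0.13, edgeR adjusted p = 0.0364). *CYP1A1* ranged from 1.65 to 2.14 between viscosities and from 1.78 to 2.55 between shTRPV4 cells and SC cells at 0.77 cP when 1 library was left out, and *CYP1B1* from 0.69 to 0.82 between viscosities. Of 81 values of named genes outside the 6, 60 kept their call in every alternative, 21 lost it in at least 1 and 0 reversed. With the replicate block, 3475, 3607 and 7731 genes were called, and *CYP1A1* differed by 0.31 between shTRPV4 and SC cells at 8 cP. No call of the 5 AHR genes tested changed in either comparison with shTRPV4 cells. None of 9 same-numbered pairs had a correlation of deviations over 0.1 (-0.055 to 0.090), and 2 of 9 samples correlated best with their own number. Depth limited only *AHRR* among the 6 genes. The cause of these shifts was not tested.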

Other observations

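Genes of other xenobiotic pathways were counted as for the AHR lists. Of 23 genes of xenobiotic redox and conjugation, 19 were tested. Between viscosities in SC cells 1 rose, the microsomal glutathione transferase *MGST1* (0.16 ± 0.048, edgeR adjusted p = 0.0324), and it lost the call without replicate 1 or 3 at 0.77 cP, or replicate 2 or 3 at 8 cP. *POR*, which passes electrons to CYP1A1 and CYP1B1, did not pass (-0.13 ± 0.05, edgeR adjusted p = 0.0566). With the hairpin at 8 cP 2 rose and 2 fell. The retinoic acid hydroxylase *CYP26B1* rose by 0.58 ± 0.078 (edgeR adjusted p = 0.000109), and the electron carrier *CYB5A* by 0.21 ± 0.054, whereas the glutathione transferase *GSTP1* (-0.20 ± 0.046) and *CYB5R3* (-0.16 ± 0.04) fell. *CYB5A* lost its call without replicate 1 or 2 of the SC cells or replicate 3 of the shTRPV4 cells, and *CYB5R3* without replicate 1 of the SC cells or replicate 2 of the shTRPV4 cells. Against SC cells at 0.77 cP, shTRPV4 cells had 4 higher and 4 lower. Of all genes, 19.3%, 20.0% and 42.4% passed in these comparisons.

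Of 14 nuclear receptor genes, 10 were tested. Of these, 2 passed between viscosities, 4 with the hairpin at 8 cP and 6 in shTRPV4 cells against SC cells at 0.77 cP. The shares of all genes that passed were 19.3%, 20.0% and 42.4% in that order. Between viscosities in SC cells the vitamin D receptor *VDR* rose (0.44 ± 0.13, edgeR adjusted p = 0.0273) and the retinoid X receptor *RXRB* fell (-0.20 ± 0.045, adjusted p = 0.00758), but both lost the call without replicate 1 at 0.77 cP or replicate 3 at 8 cP, and *VDR* also without replicate 2 at 0.77 cP or replicate 1 at 8 cP. In shTRPV4 against SC cells at 8 cP *RXRA* (-0.27 ± 0.044), the glucocorticoid receptor *NR3C1* (-0.17 ± 0.041) and *PPARA* (-0.20 ± 0.05) fell, and *PPARG* rose (0.17 ± 0.05), with *PPARG* losing the call without any of these 6 libraries but replicate 1 of the shTRPV4 cells, and *PPARA* without replicate 1 of the SC cells or replicate 3 of the shTRPV4 cells. All 14 genes related to *TIPARP* by mono-ADP-ribosylation were tested. Of them, 2 passed between viscosities, 2 with the hairpin at 8 cP and 4 in shTRPV4 cells against SC cells at 0.77 cP, beside the same shares of all genes. *PARP3* (-0.24 ± 0.063) and *PARP6* (-0.20 ± 0.059) fell between viscosities. *PARP3* lost the call without replicate 1 or 2 at 0.77 cP or replicate 2 or 3 of the SC cells at 8 cP, and *PARP6* without any of the 6 SC libraries but replicate 2 at 0.77 cP. At 8 cP *PARP12* rose with the hairpin (0.33 ± 0.056, edgeR adjusted p = 0.000601) and *PARP16* fell (-0.37 ± 0.094), the second losing the call without replicate 1 of the SC cells.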
